A study of Mus musculus with 12 samples.

Results

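The response of the young small intestine to dietary fat was taken from 6 of the 12 arrays of the series, 3 from mice on a high-fat diet and 3 from mice on a low-fat diet, paired by segment. All 6 were of male C57BL/6J mice aged 4 months. They received a diet with 45% of energy as fat, mainly palm oil, or a diet with 10% of energy as fat for 2 weeks, and both groups had eaten chow and then the low-fat diet before. The small intestine was cut into 3 equal parts, here called the proximal, middle and distal segment, and RNA from scrapings of mucosa and submucosa of 6 mice was pooled for each array. Each diet group was 1 pool of mice sampled in all 3 segments, which makes 2 young pools behind the 6 arrays, and the 3 pairs are not independent animals. The other 6 arrays were of male mice aged 21 months on the same diets, pooled from 8 mice, and serve here as pools of other mice in which the same diets can be compared. The members are all 11917 genes with a probe set that lists exactly 1 symbol and an intensity over 50 on at least 1 of the 12 arrays, out of 19938 genes with such a probe set.

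Dietary fat enters the enterocyte as fatty acids and monoglycerides, which are bound, activated to acyl-CoA, built into triglycerides again and leave on chylomicrons. Part of the fatty acids is oxidised in mitochondria and peroxisomes or hydroxylated by enzymes of the Cyp4 family. Many genes of these steps are targets of the fatty acid receptor PPAR alpha, sterol synthesis genes are driven by SREBP2, and sterol export genes are driven by LXR. Absorption of fat is mostly completed in the upper part of the small intestine, and bile acids are taken up in its last part.

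Within a segment, 1 high-fat array was compared with 1 low-fat array, so that a log2 difference (high-fat minus low-fat) has no replicate error and no p-value, and a 2-fold difference served as the threshold. An exact permutation of the signs of 3 pairs cannot give a two-sided p below 0.25. Tests were therefore taken from limma with Benjamini-Hochberg adjustment over all 11917 genes. One fit joined the 3 young pairs, and its error is the spread of the diet difference over segments of the same mice. A further fit used the mean of the 3 segments in each of the 4 pools, young and old, with terms for age and diet. Another fit took the young and old pair of each segment as repeats. A last fit compared the diet difference of young and old pools, with segment as a term. In what follows, "rose" and "fell" are used of genes that passed one of these fits at an adjusted p under 0.05, and levels are array intensities, 2 to the power of the log2 value.

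The arrays carried the markers of small intestinal epithelium at levels that hardly differed between the diets. Villin (Vil1), the structural protein of the brush border, had intensities of 7376, 8010 and 7200 on low-fat arrays and 7373, 7655 and 7336 on high-fat arrays from proximal to distal. The ileal bile acid transporter Slc10a2 increased from 70.0 over 178 to 4117 along the low-fat segments and was thus highest in the segment labelled distal. Alb of liver and Alas2 of red blood cells stayed under 50 on all 6 arrays. Stomach and Brunner gland genes set the proximal high-fat array apart. Gkn2, a gastrokine of gastric surface cells, had 42.4 on the low-fat array and 263 on the high-fat proximal array, and between 14.9 and 17.2 on the other 4. Of the 13 measured genes of this list 8 were over 2-fold higher in the proximal segment, against 0.277% of all genes. The median log2 difference there was 1.40 against −0.05 over all genes, and 0.02 and 0.05 in the middle and distal segment. Gkn2 and Anxa10 of this list exceeded 50 only on high-fat proximal arrays, through which they were kept. This count and median thus depend in part on the intensity minimum. The proximal pair of old mice had a median of 0.88. Acinar genes of the pancreas, most of which were left out of the comparisons, moved with them. Summed over 38 acinar genes, the intensity was 71408 on the low-fat array and 139264 on the high-fat proximal array, against 17660 and 16700 in the middle segment. Of 37 acinar genes over the minimum, 26 were over 2-fold higher in the proximal segment (0.277% of the 11917 genes). In the middle segment 9 were over 2-fold lower (0.109%), with a median of −0.30. Genes of the distal end were higher on the middle high-fat array, at 178 and 980 for Slc10a2 and 717 and 2540 for Fabp6, the ileal bile acid binding protein. Fgf15, the hormone that the ileum releases upon bile acid uptake, went the other way there, at 228 and 145. In these scrapings a smaller share of a cell type and less RNA per cell cannot be told apart, and the part of the stomach, pancreas or segment boundary in the results below was not tested.

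**Figure D1:**
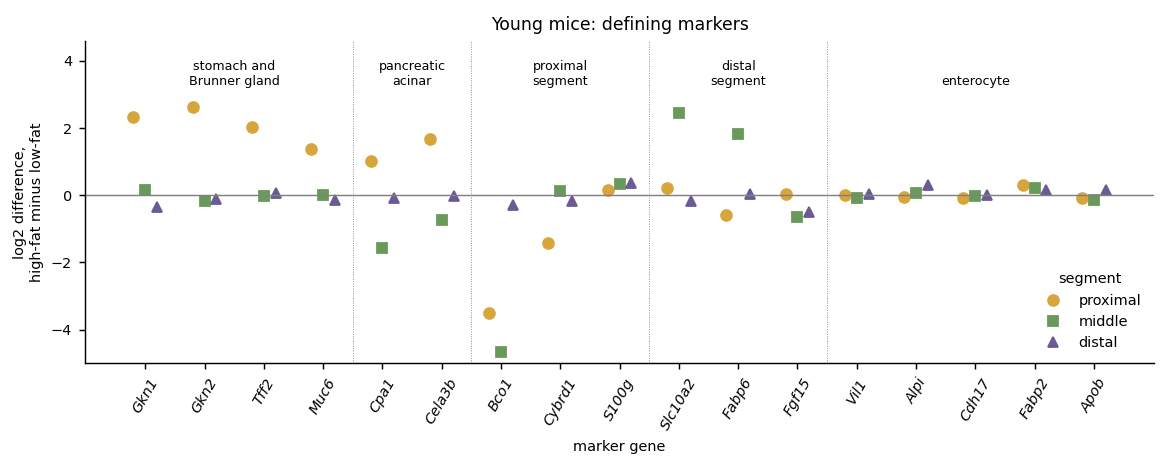
Log2 difference, high-fat minus low-fat, of the defining markers of each cell type or segment in young mice (vertical axis), with 1 point per segment and gene. The stomach, Brunner gland and acinar markers lie above 0 in the proximal segment, Slc10a2 (2.46) and Fabp6 (1.82) in the middle segment, while the 5 enterocyte markers are close to 0, the highest being Alpi in the distal segment (0.30).

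In all, 100 of the 11917 genes (0.839%) differed over 2-fold between the diets in at least 1 segment, 75 of them higher and 25 lower on the high-fat diet, and none in opposite directions in different segments. In the proximal segment 33 genes (0.277%) were higher and 12 (0.101%) lower, together 0.378%. The middle segment had 43 higher (0.361%) and 13 lower (0.109%), together 0.47%, and the distal segment 16 higher (0.134%) and 6 lower (0.0503%), together 0.185%. Most of these genes passed the threshold in 1 segment, 59 of those higher and 20 of those lower. The proximal and middle segment shared 10 of the higher genes, 30.3% of the proximal and 23.3% of the middle ones, whereas proximal and distal shared 2. Acot1, a cytosolic acyl-CoA thioesterase, was the 1 gene over 2-fold higher in all 3 segments, and the immunoglobulin kappa gene Igkv10-96 the 1 gene over 2-fold lower in all 3. Near the threshold, Cyp4f16 had a log2 difference of 1.00 and Igkv8-30 of 0.95 in the middle segment. Of the 75 higher genes 9 exceeded the minimum intensity on high-fat arrays only, among them Cyp4a31 and Gkn2, and of the 25 lower genes 2 on low-fat arrays only. Without stomach, Brunner gland and acinar genes, 36 genes were left over 2-fold in the proximal segment in place of 45, a count added after the data were seen, and with the pancreas-specific genes kept there were 70, more than the 64 of the middle segment.

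**Figure D2:**
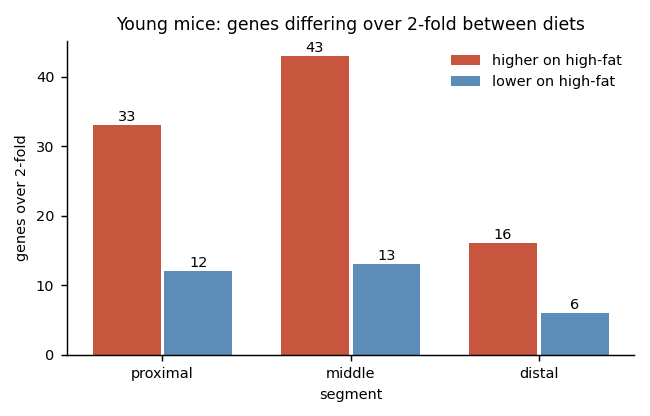
Number of genes over 2-fold higher or lower on the high-fat than on the low-fat diet in each segment of young mice, out of 11917 genes. The middle segment has the largest numbers (43 and 13) and the distal segment the smallest (16 and 6), but with the pancreas-specific genes kept the proximal segment has 70 in all and the middle segment 64.

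The fit over the 3 young pairs called 1 gene (0.00839%), the fall of Igkv10-96, with 1572 genes at an unadjusted p under 0.05. With an intensity trend and robust prior it called 107. Over both ages, the means of the pools gave 301 genes that rose (2.53%) and 378 that fell (3.17%) with the high-fat diet, together 5.7%. Counts of list members that rose or fell over the pool means, given below, are to be read beside these shares. Without the middle segment the number called over the pool means dropped from 679 to 131, without the distal segment it was 448, and without the proximal segment 718. Within the segments, the young and old pair together gave 28 rises (0.235%) and 10 falls (0.0839%), together 0.319%, for the proximal segment. For the middle segment there were 156 rises (1.31%) and 147 falls (1.23%), together 2.54%, and for the distal segment 43 rises (0.361%) and 20 falls (0.168%), together 0.529%. The p-values of the fit over the young pairs cover only the spread over segments of the same mice. Those of the pool means and of the fits within segments cover the spread of the diet difference between young and old pools. The young minus old fit uses both ages too, but its p-values and standard errors cover only the spread over segments of the same pools. None covers the spread between single mice. The pool means left 1 residual degree of freedom, against 5.7 of the prior that limma takes from all genes. Their standard errors thus rest largely on that prior.

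Genes that turn over fatty acids were among the largest rises. Acot1, which releases fatty acids from acyl-CoA, had intensities of 58.2, 49.7 and 50.2 on low-fat arrays and 157, 235 and 115 on high-fat arrays from proximal to distal. Its log2 differences were 1.43, 2.24 and 1.20, and over both ages the rise was 1.59 (standard error 0.05, adjusted p = 0.000111 from limma). The omega-hydroxylase Cyp4a31 had 11.7, 6.08 and 7.24 on the low-fat and 75.8, 38.5 and 12.2 on the high-fat arrays. All its low-fat values lay below the minimum of 50, so that no fold is given, and it was kept only through its high-fat values. The related Cyp4a10 went from 65.1 to 320 and from 34.9 to 184 in these segments and from 33.7 to 33.2 in the distal one. Both Cyp4a genes were at 65.1 or less on all low-fat arrays, and whether their probe sets share targets was not tested. Over both ages Cyp4a10 rose by 1.71 (standard error 0.08, adjusted p = 0.00021 from limma). Cyp4f16, of another branch of the family, had 943, 875 and 961 on low-fat arrays and 1335, 1753 and 1615 on high-fat arrays. Of the 8 measured Cyp4 genes 3 rose over the pool means, 1 of them being Cyp4a31, and 1, Cyp4b1, fell.

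Of the genes of mitochondrial oxidation, a minority rose. Acadl, the long-chain acyl-CoA dehydrogenase, had 1278, 747 and 866 on low-fat arrays and 1955, 1903 and 1330 on high-fat arrays. The high-fat values were higher in every segment, by 1.35 on the log2 scale in the middle and by 0.61 and 0.62 in the proximal and distal segment. Acaa2, the thiolase of this pathway, showed 0.27, 0.81 and 0.42, and Cpt1a, which admits fatty acids to mitochondria, 0.45, 0.51 and 0.14. Bbox1, the last enzyme of carnitine synthesis, had 773, 183 and 25.8 on low-fat arrays and 1164, 754 and 72.6 on high-fat arrays. Its level thus dropped along the segments on either diet, and the diet difference was 4.12-fold in the middle segment. Over the pool means 9 of 26 genes of mitochondrial oxidation and ketogenesis rose and 1, the coactivator Ppargc1a, fell, against 2.53% and 3.17% of all genes. Their median young difference was 0.10, 0.19 and 0.11 from proximal to distal, with 17, 18 and 22 of 26 genes higher. Of all 11917 genes 4279, 6015 and 6073 were higher.

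Acox2, the oxidase for branched chains and bile acid side chains, had 105, 95.3 and 102 on low-fat arrays and 194, 239 and 123 on high-fat arrays. Acaa1b, a peroxisomal thiolase, had log2 differences of 0.43, 0.69 and 0.73, and Hsd17b4, the D-bifunctional protein, of 0.37, 0.51 and 0.32. Of 19 peroxisomal genes 8 rose and none fell over the pool means, and the medians were 0.14, 0.22 and 0.18. The thioesterases Acot2 (0.50, 1.04 and 0.61), Acot4 (0.40, 0.63 and 0.36) and Acot12 (0.33, 0.57 and 0.43) rose as well, 4 of 11 in the family with Acot1.

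**Figure D3:**
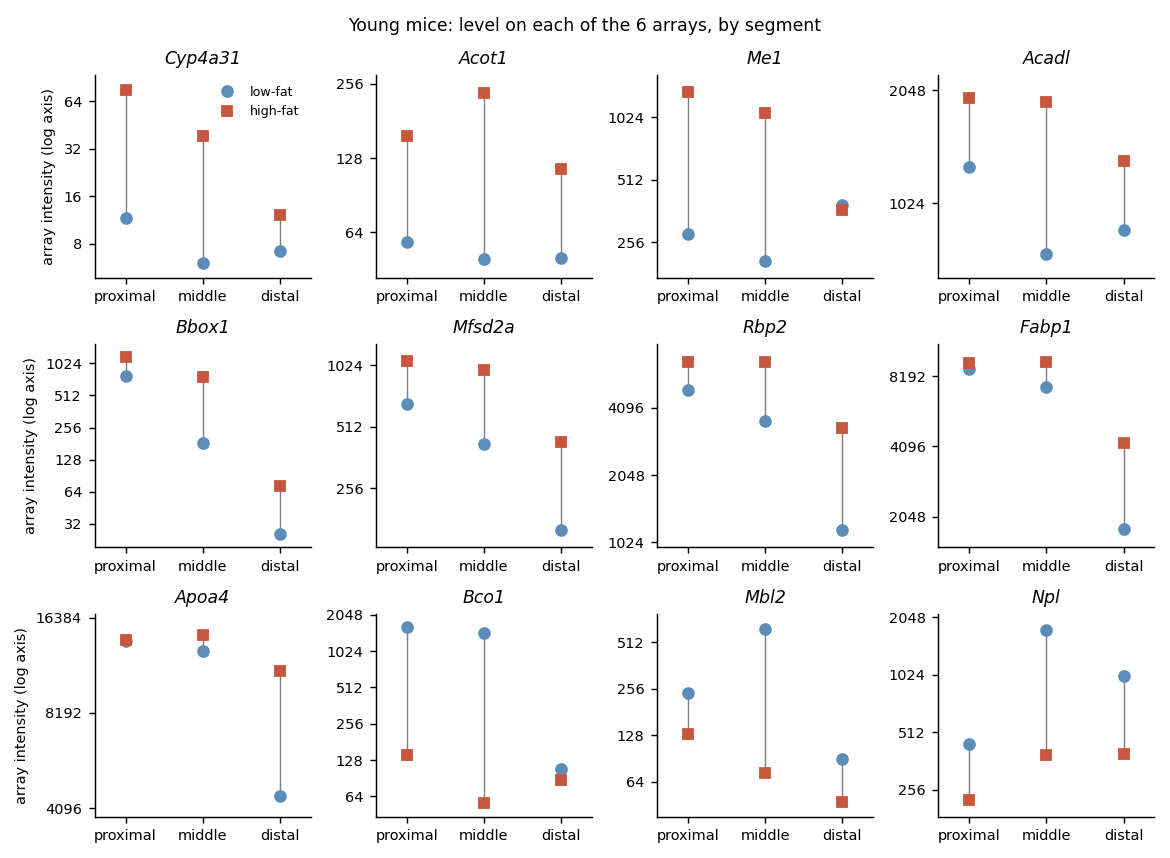
Intensity of 12 genes on each of the 6 young arrays (log axis, low-fat circles and high-fat squares joined by a line within a segment). Acot1 and Acadl differ in all segments, Cyp4a31 and Me1 mainly in the proximal and middle segment, Rbp2, Fabp1 and Apoa4 most in the distal segment, and Bco1, Mbl2 and Npl lie lower on the high-fat diet.

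Apoa4, Fabp1 and Rbp2 had their largest differences in the distal segment, whereas the 18 genes of fatty acid uptake and binding had medians of 0.10, 0.23 and 0.03 from proximal to distal. Apoa4, the apolipoprotein secreted on chylomicrons, was at 13823, 12886 and 4492 on low-fat arrays and 13959, 14473 and 11138 on high-fat arrays. The low-fat distal array alone was far below the other 5, and the distal difference was 2.48-fold. Fabp1, the liver-type fatty acid binding protein, had 8788, 7349 and 1809 on low-fat arrays and 9328, 9414 and 4255 on high-fat arrays, the same order with a distal difference of 2.35-fold. Rbp2, which binds retinol in enterocytes, had 4909, 3577 and 1168 on low-fat arrays and 6550, 6573 and 3330 on high-fat arrays. All 3 genes thus came closer to their proximal level in the distal segment of the high-fat pool. In the fit of both ages the distal minus proximal difference of the diet response was 1.28 for Apoa4, 1.03 for Fabp1 and 1.18 for Rbp2 (standard errors 0.10, 0.11 and 0.11, adjusted p = 0.00594, 0.0436 and 0.0194 from limma), and these were the 3 genes (0.0252%) called upward in that contrast.

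Mfsd2a, a transporter of lysophosphatidylcholine, had 663, 420 and 159 on low-fat arrays and 1074, 974 and 433 on high-fat arrays, and its log2 difference was 0.70, 1.21 and 1.45 from proximal to distal. Slc27a2, a very long-chain acyl-CoA synthetase and fatty acid transporter, showed 0.22, 0.71 and 0.80. Cd36, a fatty acid receptor of the apical membrane, had instead its largest value in the proximal segment (0.63, 0.27 and 0.33). Sec24d, a coat component of transport vesicles, had 0.22, 0.32 and 0.75, and Mttp, which loads lipid onto apolipoprotein B, 0.12, 0.27 and 0.45. Apob itself had −0.07, −0.15 and 0.14. Among 18 genes of fatty acid uptake and binding 6 rose over the pool means, as did 5 of 18 of chylomicron assembly and 3 of 26 of triglyceride resynthesis and lipid droplets, and none of these fell. The 3 last were Lpin2, the droplet coat protein Plin2 (0.33, 0.35 and 0.19) and Cidec (0.07, 0.30 and 0.50).

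Sterol genes split by role. Insig1, which holds SREBP in the endoplasmic reticulum and is itself its target, had 1352, 660 and 775 on low-fat arrays and 1976, 1539 and 1151 on high-fat arrays, with the largest difference (1.22) in the middle segment. Cyp51, lanosterol demethylase, showed log2 differences of 0.48, 0.60 and 0.07, Fdps, farnesyl diphosphate synthase, 0.47, 0.56 and 0.25, and Lss, lanosterol synthase, 0.34, 0.40 and 0.33. Of 20 genes of cholesterol synthesis and SREBP2 control 10 rose over the pool means and none fell, and the medians of the young differences were 0.17, 0.34 and 0.09, against −0.05, 0.00 and 0.00 over all genes. In contrast, genes that move sterols out of the cell were lower. Abcg5, a subunit of the apical sterol exporter, had 4606, 4113 and 3040 on low-fat arrays and 3567, 2569 and 2627 on high-fat arrays. Abca1, which hands cholesterol to lipoproteins, had 238, 504 and 364 against 195, 296 and 349, with the largest difference again in the middle segment (−0.77). Cyp27a1, the sterol 27-hydroxylase, had 1149, 1263 and 515 against 823, 536 and 318, and fell by 0.94 over both ages (standard error 0.07, adjusted p = 0.00127 from limma). Of the 15 genes of sterol transport and LXR control 6 fell and 4 rose, so the list as a whole had no 1 direction. The 4 were the receptor Nr1h3, Srebf1, Lpcat3 and Nceh1.

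Among genes of fatty acid and NADPH synthesis the differences were uneven. Me1, malic enzyme, a source of NADPH, had 281, 209 and 388 on low-fat arrays and 1362, 1071 and 367 on high-fat arrays. The proximal and middle high-fat arrays were far above the other 4, by 2.28 and 2.36 on the log2 scale within segments, and the distal difference was −0.08. Scd1, the stearoyl-CoA desaturase, had 190, 555 and 1784 against 449, 1264 and 2050. Its diet difference was likewise largest in the proximal and middle segment (1.24 and 1.19), but its level increased along the segments on either diet. Elovl5, an elongase of polyunsaturated fatty acids, was lower in all segments (−0.52, −0.46 and −0.30). Thrsp, a lipogenic nuclear protein, had −0.49, −0.67 and −1.12 and missed the threshold over the pool means (adjusted p = 0.0512 from limma). Of the 22 genes 5 rose and 1 fell, while medians were 0.05, 0.11 and −0.05.

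**Figure D4:**
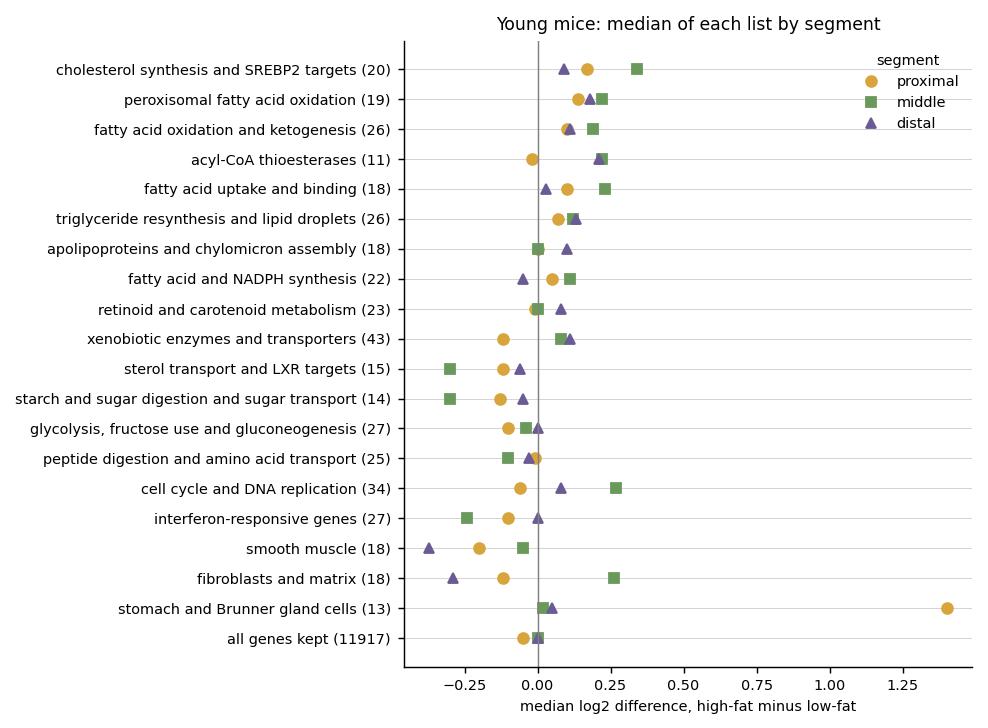
Median log2 difference, high-fat minus low-fat, of 19 gene lists and of all genes in young mice, with 1 symbol per segment and the number of genes in parentheses. Cholesterol synthesis has its highest median in the middle segment (0.34), sterol transport and sugar handling their lowest there (both −0.30), and the stomach and Brunner gland list stands at 1.40 in the proximal segment.

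More genes of sugar digestion and transport fell than rose. Slc2a2, the basolateral sugar transporter, had 6563, 4249 and 818 on low-fat arrays and 5984, 2617 and 475 on high-fat arrays. Its log2 difference was −0.13, −0.70 and −0.78, and in the fit of both ages it fell in the middle and distal segment, with values of −0.66 and −0.83 (standard errors 0.07 and 0.07, adjusted p = 0.00512 and 0.00654 from limma). Mgam, maltase-glucoamylase, had −0.22, −0.47 and −0.18, and Slc2a7, another sugar transporter, −0.20, −0.38 and −0.17. Slc5a4b, of the glucose transporter family SLC5, went the other way, at 1114, 1834 and 626 against 1581, 2387 and 1302. Over the pool means 6 of 14 genes fell and 2 rose, against 3.17% and 2.53% of all genes. In the young proximal, middle and distal pair 13, 10 and 10 of the 14 were lower, where 7638, 5899 and 5841 of all 11917 genes were. Pfkfb3, which makes the activator of phosphofructokinase, had 674, 531 and 215 on low-fat arrays and 382, 155 and 150 on high-fat arrays. It fell by 1.25 over both ages (standard error 0.10, adjusted p = 0.00141 from limma), while of the 27 genes of glycolysis, fructose use and gluconeogenesis 1 other, Aldoc, passed, upward. Of 25 genes of peptide digestion and amino acid transport 4 fell and 2 rose, against 3.17% and 2.53% of all genes. Among them Slc6a14, a broad amino acid transporter, had 10.8, 11.4 and 238 against 10.0, 12.6 and 101, so that only the distal arrays carried it above the minimum.

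The largest fall among the genes named here was that of Bco1, whose product splits beta-carotene into retinal. It had 1608, 1443 and 107 on the low-fat and 140, 56.4 and 88.1 on the high-fat arrays. The proximal and middle low-fat arrays stood apart from the other 4, and the difference was 11.5-fold in the proximal and 25.6-fold in the middle segment. Over both ages it fell in these segments, with log2 values of −3.26 and −4.09 (standard errors 0.25, adjusted p = 0.0047 and 0.000459 from limma), and the distal minus middle difference was 3.85 (standard error 0.35, adjusted p = 0.022). Other genes of retinoid metabolism rose. Adh4, an alcohol dehydrogenase that takes retinol, had 1016, 236 and 54.2 against 1364, 537 and 63.5, and Aldh1a7, of the retinal dehydrogenase family, 717, 573 and 678 against 1172, 1212 and 944. Of 23 genes in the list 6 rose and 2, Bco1 and the retinol esterifying enzyme Lrat, fell. Scarb1, a receptor that takes up carotenoids and sterols, had log2 differences of −0.74, −0.91 and −0.06 in young mice but did not pass over both ages (adjusted p = 0.107 from limma).

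The promoters of Bco1 and Fabp1 are shown because both hold a direct repeat of the nuclear receptor half-site with 1 base between (DR1), the kind of element that PPAR and HNF4 receptors bind, and because the genes moved in opposite directions in different segments. The 250 bases before the annotated start are from RefSeq (GRCm38.p6), both on the plus strand, at chr8:117095615-117095864 for Bco1 and chr6:71199629-71199878 for Fabp1. Capitals mark the repeat, which lies on the opposite strand in both.
Bco1: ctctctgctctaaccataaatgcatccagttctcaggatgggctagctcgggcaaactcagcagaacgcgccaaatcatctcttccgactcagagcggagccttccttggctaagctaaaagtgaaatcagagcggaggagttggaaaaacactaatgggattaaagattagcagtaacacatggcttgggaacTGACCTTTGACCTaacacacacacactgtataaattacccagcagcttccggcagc
Fabp1: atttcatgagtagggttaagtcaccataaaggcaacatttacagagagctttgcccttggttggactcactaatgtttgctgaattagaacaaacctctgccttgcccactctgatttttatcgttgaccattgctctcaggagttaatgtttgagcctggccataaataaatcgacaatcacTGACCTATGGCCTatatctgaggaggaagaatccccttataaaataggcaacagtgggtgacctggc
In Bco1 the repeat spans positions −56 to −44 from the start and consists, when read on the opposite strand, of the half-site AGGTCA repeated after 1 base of any kind, a pattern found on either strand in 13 of 32851 promoters (0.0396%). The Fabp1 repeat, at −67 to −55, fits the looser half-site AGGNCA repeated in the same way, which includes the former and was found in 125 promoters (0.381%). Of the 100 genes over 2-fold, 78 had a promoter in the table, and these were the 2 with a match to either pattern. Such a match is a description of letters and does not show binding.

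Several genes of other functions ranked among the largest rises. Slc6a3, a dopamine transporter, had 108, 78.2 and 39.5 on low-fat arrays and 295, 296 and 60.4 on high-fat arrays. Kdelr3, a receptor that returns proteins to the endoplasmic reticulum, had 112, 102 and 108 against 252, 471 and 156. No other gene of the 26 in the unfolded protein response and secretory list passed over the pool means. Tubb2a, a beta-tubulin, had 146, 91.9 and 104 against 241, 299 and 272. H2-Q10, a class I MHC gene, had 81.6, 80.0 and 70.2 against 254, 227 and 92.1. It belongs to a family of like sequences, and whether relatives share its probe set was not tested. Lamb3, a laminin chain of the basement membrane, had 129, 108 and 275 against 303, 377 and 343. Tm4sf4, a tetraspanin-like protein, had 4116, 2643 and 2670 against 6100, 7279 and 4953 and was among the brightest genes that rose in all segments. Flvcr2, a haem and choline transporter, had 40.2, 44.1 and 99.8 against 71.3, 142 and 151. Each of these rose over the pool means (adjusted p from 0.00021 to 0.000257, and 0.000111 for Slc6a3 and 0.000238 for Flvcr2, from limma).

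Vitamin and mineral genes moved singly. Slc23a1, the ascorbate transporter, had 318, 844 and 151 on low-fat arrays and 794, 1366 and 389 on high-fat arrays, with log2 differences of 1.32, 0.69 and 1.36. Cybrd1, the duodenal ferric reductase, had 792 on the low-fat array and 295 on the high-fat proximal array and between 51.8 and 64.0 on the other 4, and fell in the proximal segment by 1.72 over both ages (standard error 0.14, adjusted p = 0.0047 from limma). S100g, the calcium binding protein of the same segment, had 1476 and 1627. Cubn, the receptor for vitamin B12 with intrinsic factor, had −0.47, −0.46 and −0.07 and fell by 0.34 over the pool means (standard error 0.05, adjusted p = 0.0136 from limma). Mt2, a metallothionein, was over 2-fold higher in the young proximal pair (281 and 676), but its value in old mice was 0.01 and it was not called. Of the 26 genes 3 rose and 3 fell over the pool means, against 2.53% and 3.17% of all genes.

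Xenobiotic enzymes moved in both directions. Ces1f, a carboxylesterase, had 1293, 242 and 531 on low-fat arrays and 1678, 1054 and 683 on high-fat arrays, and Ugt2b5, a glucuronosyltransferase, 241, 60.1 and 114 against 393, 218 and 118. In both genes the middle low-fat array was the lowest, and the middle difference exceeded the distal one over both ages (−1.76 and −2.09 for distal minus middle, standard errors 0.15, adjusted p = 0.022 and 0.0217 from limma). Aadac, an esterase of the endoplasmic reticulum, had its largest difference in the distal segment, at 329 and 713. Cyp2c29 had 465 and 210 in the proximal segment and 55.0 or less on the other 4 arrays. Ces1d, another carboxylesterase, had 521, 192 and 148 against 253, 113 and 114, and Akr1c14, an aldo-keto reductase, 1821, 1011 and 752 against 1046, 451 and 658. Of 43 genes 13 rose and 7 fell over the pool means, against 2.53% and 3.17% of all genes. Members of the Ces, Ugt, Cyp and Akr families are alike in sequence, and whether their probe sets share targets was not tested.

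Among immune and secreted genes, Mbl2, a lectin that starts the complement cascade, had 241, 626 and 90.2 on the low-fat and 130, 72.9 and 47.5 on the high-fat arrays. The middle low-fat array stood out, and the difference there was 8.58-fold. Over both ages Mbl2 fell by 3.04 in the middle segment (standard error 0.17, adjusted p = 0.000395 from limma). Npl, the lyase that breaks down sialic acid, had 447, 1759 and 1012 against 226, 391 and 395. It fell by 1.64 over the pool means (standard error 0.07, adjusted p = 0.00021 from limma). Of 27 interferon-responsive genes 5 fell and none rose over the pool means, against 3.17% and 2.53% of all genes. Ifit1, an antiviral RNA sensor, had 993, 682 and 295 against 772, 292 and 224. In the young middle pair 24 of the 27 were lower (median −0.24), where 5899 of all 11917 genes were. The proximal median of this list was −0.10 in young and 0.26 in old mice.

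Igkv10-96 had 1091, 729 and 562 on low-fat arrays and 477, 303 and 210 on high-fat arrays. It fell by 1.29 over the young segments (adjusted p = 0.0153 from limma), and with quantile normalization or without a segment term that fit called 0 genes. In old mice its differences were −0.13, 0.24 and −1.40. Other immunoglobulin genes went in other directions. Ighg3 had 118, 67.0 and 46.3 against 17.4, 34.6 and 25.3, whereas Igha had 493, 354 and 334 against 973, 679 and 288 and Igkv19-93 had 1537, 609 and 529 against 2213, 1366 and 1229. Antibody genes of 1 family are alike in sequence, and whether their probe sets share targets was not tested. Over the pool means Igkv10-96 fell by 0.86 (log2 value −0.86, standard error 0.17, adjusted p = 0.0386 from limma). It is not in the plasma cell and immunoglobulin list, of whose 9 measured genes none passed.

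The distal segment had 6 genes over 2-fold lower. Car1, a carbonic anhydrase most abundant in the large bowel, had 235 on the low-fat array and 46.8 on the high-fat distal array, and between 20.9 and 23.1 on the other 4. Pla2g4c, a cytosolic phospholipase A2, had 135 and 46.1 there, and between 20.3 and 30.8 elsewhere. Both were thus above the minimum only on the distal low-fat array among the young arrays. Distally, the Car1 difference was −2.33 in young and −3.41 in old mice. Its young high-fat value lay below the minimum, so no test is given for it. Pla2g4c was kept only through low-fat arrays, in old mice too, and its test is not given. The others were Npl, Slc6a14, Thrsp and Igkv10-96.

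Apart from the stomach, Brunner gland and acinar genes given above, cell type lists had small median differences, but often in 1 direction within a segment. Of all 11917 genes 7638, 5899 and 5841 were lower and 4279, 6015 and 6073 higher in the proximal, middle and distal pair. Smooth muscle genes were lower in 16 of 18 in the proximal (median −0.20) and in 16 of 18 in the distal pair (median −0.37), with Myh11, the smooth muscle myosin, at 229, 351 and 1057 on low-fat arrays and 148, 330 and 798 on high-fat arrays. Of the 18, 4 fell over the pool means, against 3.17% of all genes. Fibroblast and matrix genes had medians of −0.12, 0.26 and −0.29, with 17 of 18 higher in the middle pair. Cell cycle genes were higher in 32 of 34 in the middle pair (median 0.27) and lower in 23 of 34 in the proximal pair, where 7638 of all 11917 genes were lower. Mcm2, a subunit of the replication helicase, had 120, 151 and 198 against 151, 225 and 233 and was the 1 member to pass over the pool means. Paneth cell genes were higher in 9 of 9 in the proximal and lower in 9 of 9 in the distal pair, with medians of 0.26 and −0.26 and none passing. The 28 genes of the respiratory chain were all lower in the proximal pair (median −0.10, against −0.05 over all genes) and none passed. Members of a list share their arrays, so these counts describe 1 pair of pools.

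The diet response itself was compared between segments in the fit of both ages. From proximal to middle, 3 genes (0.0252%) had a lower response and none a higher one, namely 2310057J18Rik, Gkn2 and Gkn3. The first 2 exceeded 50 only on high-fat proximal arrays, through which they were kept, and Gkn3 was at 24.1 or less in the middle and distal segment, so that these calls are not read as a size of change. The same 3 genes (0.0252%) had the lower response from proximal to distal, which with the 3 higher ones makes 0.0503%. Gkn2 and Gkn3 are in the stomach list given above. From middle to distal, 3 genes (0.0252%) had a higher response, Apoa4, Bco1 and Mbl2, and 6 (0.0503%) a lower one, together 0.0755%. The 6 were Aspn and Dpt, both of the extracellular matrix, with Ces1f, Kdelr3, Lamb3 and Ugt2b5. Dpt exceeded 50 only on the young distal arrays (97.3 and 61.1), through which it was kept, and was at 29.9 or less in the middle segment. Its difference is thus not read as a size of change. Aspn exceeded 50 only on the young low-fat distal array (59.5), through which it was kept, and its value is not given. For Bco1 and Mbl2 the higher value stands for a fall in the middle segment that was smaller or not seen in the distal one.

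The young genes were followed in the old pools, which held other mice and shared no array with them. Of the 33 genes over 2-fold higher in the young proximal pair, 32 had the same sign in the old proximal pair and 16 were over 2-fold higher there, where 0.218% of all genes were. In the middle segment 41 of 43 had the same sign and 34 were over 2-fold higher (0.42% of all genes), and in the distal segment 12 of 16 and 7 (0.185%). Among the lower genes 11 of 12, 10 of 13 and 6 of 6 kept their sign, and 3, 5 and 4 were over 2-fold lower in old mice (0.0503%, 0.134% and 0.411% of all genes). The counts of signs are to be read beside the old differences of all genes. Their medians were −0.0, −0.0 and −0.01 from proximal to distal, so that neither sign prevailed among them. Over all genes the diet differences of young and old pairs had a Pearson correlation of 0.37, 0.64 and 0.39 from proximal to distal, across genes, which are not independent replicates. Among the genes that turned sign was Fabp6 of the middle segment (1.82 in young and −1.26 in old mice), a distal marker. Of the genes over 2-fold higher in young, 38 of 43 in the middle segment rose in the fit of both ages within that segment (1.31% of all genes). In the proximal segment 17 of 33 did (0.235%) and in the distal segment 11 of 16 (0.361%). That fit contains the young arrays themselves. No gene had a young minus old difference of the diet response that passed over the segments (0 from limma, with 319 genes at an unadjusted p under 0.05). Me1 had 2.28, 2.36 and −0.08 in young and 1.92, 3.17 and 1.01 in old mice, a young minus old difference of −0.52 (standard error 0.65) that did not pass.

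**Figure D5:**
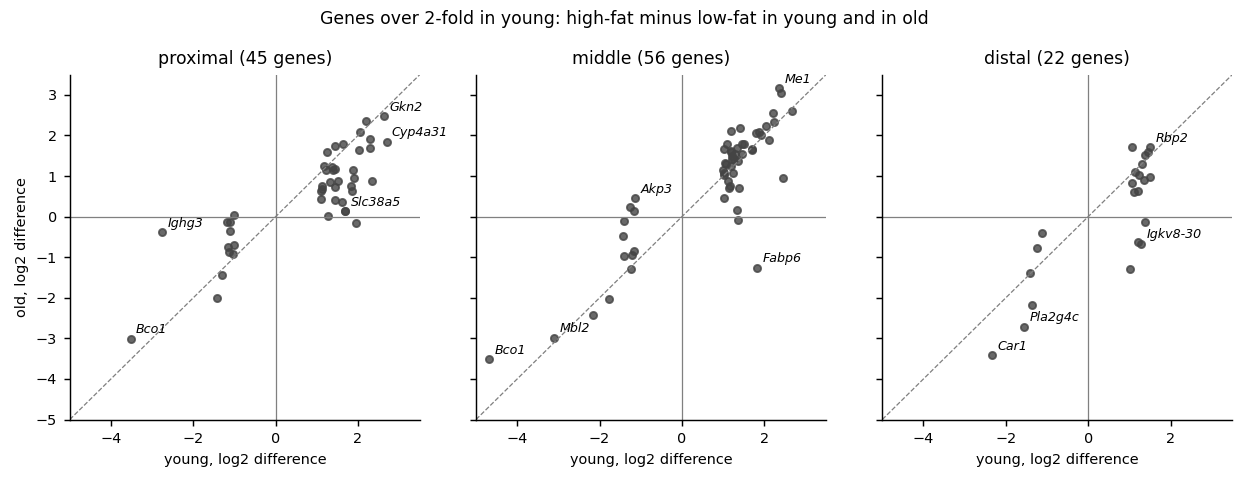
Log2 difference, high-fat minus low-fat, of each gene over 2-fold in young mice (horizontal axis) and the difference of the same gene in the same segment of old mice (vertical axis), 1 panel per segment; the dashed line marks equal values. Most points of the middle segment lie near the line, whereas Fabp6 and some proximal and distal genes do not.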

How the data were processed

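Gene expression was measured on Affymetrix Mouse Gene 1.0 ST arrays in pooled scrapings. The authors deposited log2 expression values normalized by RMA (version not stated), 1 per probe set and array, from 1.80 to 14.49 with array medians between 5.57 and 5.70. The number of pools limits the precision. Intensity is 2 to the power of the deposited log2 value. Of 35556 probe sets, 21789 had exactly 1 symbol, 1621 several and 12146 none. Each gene was taken from its brightest probe set, and 31 pancreas-specific genes were removed. The authors removed such genes too, but their list was not used here and the genes were chosen from general knowledge. Genes at or below an intensity of 50 on every array were dropped, which left 11917.

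Differences were taken within segments. The fits used lmFit and eBayes of limma 3.58.1 (R 4.3.3) over the 3 young pairs with segment as a term, over the means of 4 pools with age and diet, within segments over both ages, and for young minus old. Tables and plots were made with Python 3.11.15, pandas 2.3.3, numpy 2.4.6 and matplotlib 3.10.9. The fits were tested on simulated data. The members, gene lists and the motif were chosen with earlier results of these data known. Named genes were the 15 largest rises and falls over the young segments, the 8 largest in each segment, those over 2-fold in all segments, in each list up to 4 members with the largest mean difference and any over 2-fold, and the markers. Aldoc, Lpcat3, Lpin2, Lrat, Nceh1, Nr1h3, Ppargc1a, Srebf1 and other members given to complete a count were named after their values were seen. Alternatives were other intensity minimums, normalizations, probe set rules, priors, thresholds and leaving out segments. Leaving out stomach, Brunner gland and acinar genes, or ileal bile acid genes, was chosen after seeing the data. Promoters came from RefSeq (GRCm38.p6) for 179 of 243 named genes.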

Additional observations from a re-analysis of the deposited data

Results flagged for a closer look

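The diet response differed between segments for the genes below in the fit of both ages (limma, adjusted p under 0.05). The middle minus proximal difference was −2.44 for 2310057J18Rik, −2.60 for Gkn2 and −1.84 for Gkn3 on the log2 scale. The distal minus proximal difference was −1.97, −2.64 and −1.95 for these, 1.28 for Apoa4, 1.03 for Fabp1 and 1.18 for Rbp2. The distal minus middle difference was 1.15 for Apoa4, 3.85 for Bco1, 2.18 for Mbl2, −1.76 for Ces1f, −1.68 for Kdelr3, −1.44 for Lamb3 and −2.09 for Ugt2b5. Since 2310057J18Rik and Gkn2 exceeded an intensity of 50 only on high-fat proximal arrays, through which they were kept, and all 3 genes were below it in the middle and distal segment, their values are not read as a size of change. Gkn2 and Gkn3 are genes of the stomach list, which was higher in the proximal segment of both ages.

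Ccnd1, Cd4 and Ttr were higher on the high-fat diet in all 3 young and lower in all 3 old segments. Their young minus old differences were 0.35, 0.54 and 0.29 on the log2 scale, and limma called none of them among all genes.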

How the results depend on the processing

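The count of genes over 2-fold in young mice became 70 in the proximal segment with pancreas-specific genes kept, and at 1.5-fold it was 169, 175 and 108 from proximal to distal. Over the young segments the number called was 2 with an intensity over 100, 0 with quantile normalization, 107 with an intensity trend and robust prior, 6 with all 12 arrays, 0 without a segment term and from 6 to 10 leaving out a segment. Over the pool means it was 186 without an intensity filter, 1426 with the trend and robust prior and from 131 (without the middle segment) to 718 (without the proximal segment), of which 123 and 529 were shared with the 679. Within segments, an intensity over 100 gave 94, 507 and 117 genes from proximal to distal, the trend and robust prior 230, 859 and 435, and no filter 152 (middle) and 36 (distal). For segment differences, an intensity over 100 gave 7 (middle minus proximal), 28 (distal minus middle) and 13 (distal minus proximal), the trend and robust prior 41, 139 and 61, and distal minus proximal also had 11 with median centring and 13 with the mean of probe sets. The young minus old fit called 0 genes in every alternative run. Of the 115 named genes called over the pool means, 48 were not called without the middle segment and 36 without the filter. The pool means changed sign for 9 genes on leaving out a segment, where values ranged from −0.00 to 0.71 (Anxa10), −0.05 to 0.83 (Gkn1), −0.07 to 1.25 (Gkn2) and −0.01 to 0.48 (Muc5ac), lowest without the proximal segment, from −0.61 to 0.05 (Bmp5), −0.49 to 0.05 (Ogn), −1.05 to 0.05 (Pla2g4c) and −0.58 to 0.02 (Slc6a14), highest without the distal segment, and from −0.75 to 0.12 (Fgf15), highest without the middle segment. The cause was not tested. With 1 array per group and segment, precision is limited by the number of pools.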

Other observations

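Some lists described nowhere above also had members that passed over the pool means (limma). Of 17 enteroendocrine genes, 4 fell (Sst, Tph1, Neurod1 and Pcsk1) and 1, Pyy, rose, against 3.17% and 2.53% of all genes. In the young proximal pair 12 of the 17 were lower, where 7638 of all 11917 genes were. Of 10 adipocyte genes 3 rose (Cidec, Pparg and Car3) and none fell, against 2.53% and 3.17% of all genes. All 10 were higher in the young proximal pair, where 4279 of all genes were, with a median log2 difference of 0.20. Of 20 antioxidant genes 3 rose (Gpx4, Sod1 and Cbr1) and none fell, against 2.53% and 3.17% of all genes. Of 16 circadian clock genes 1, Hlf, fell, where 3.17% of all genes did. Of 20 genes of macrophages and other myeloid cells 18 were lower in the young proximal pair, where 7638 of all 11917 genes were, with a median of −0.25. Of these 20 genes 1, Ctss, fell, against 3.17% of all genes. No gene of the goblet cell, stem cell, endothelium, B cell, T cell or mast cell lists passed over the pool means.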
